A study of Caenorhabditis elegans with 12 samples.

Results

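The hairpins cel-mir-77, cel-mir-231, cel-mir-248 and cel-mir-249, written below without the species prefix, are 4 microRNA genes of the nematode Caenorhabditis elegans. They were taken by name from a table of 250 hairpins because their read counts had differed between rotenone and solvent at day 5. All 4 rows were found, and all 4 were among the 181 hairpins with enough reads to be tested. Their day 5 difference is therefore what chose them, and it is given below as a description with no test.

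A microRNA is transcribed as part of a longer RNA that folds into a hairpin. The nucleases Drosha and Dicer cut the hairpin to a short duplex, and an Argonaute protein loads a strand of it to repress messenger RNAs that pair with its seed. Deep sequencing of small RNA counts these cut strands. The reads were counted per hairpin here, so both arms of a hairpin are added together. Targets and functions of these 4 hairpins in the worm were not analysed here, and no role is assigned to them.

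The worms were whole hermaphrodites of N2, the wild-type laboratory strain, and all 12 libraries share that background. Solvent controls had 0.1% DMSO. Treated worms had 100 nM rotenone, an inhibitor of complex I of the mitochondrial respiratory chain, for 24 hours from the fourth larval stage (L4). Libraries were made at day 5 and day 15, with 3 per treatment at each age. The labels do not say from which event the days count, whether the rotenone worms also received DMSO, or whether replicates came from separate cultures. P-values thus measure the spread between these libraries, which may be technical.

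Total hairpin reads ranged from 8845726 to 11045174 per library at day 5 and from 4215830 to 5989717 at day 15. A floor of 3 reads corresponded to 0.272 to 0.712 CPM (counts scaled to a common library size), far below every value of the 4 hairpins, whose lowest count in any library was 803. Between any pair of replicates the chi-square of the counts, divided by its degrees of freedom, was 28.3 to 419, so no library was a copy of another. All the tissue hairpins set beside the results were detected: mir-1 of muscle, mir-60 of intestine, lsy-6, mir-124 and mir-791 of neurons, mir-228 of glia, mir-246 of the gonadal sheath and the 8 of mir-35 to mir-42, which are abundant in oocytes and embryos. In whole worms, fewer cells of a type and less RNA per cell cannot be told apart.

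In the WBcel235 annotation the 4 hairpins lie apart from each other and outside protein-coding genes. The mir-77 hairpin is on the plus strand of chromosome II (12519268 to 12519367), 408 bases from srh-70 on the other strand. The mir-231 hairpin is on the minus strand of chromosome III (7545057 to 7545155), 8424 bases from lin-39, a Hox gene on the same strand. The other 2 are on the minus strand of chromosome X, mir-248 at 2262373 to 2262470 and mir-249 at 3006440 to 3006536. Of these, mir-248 lies 695 bases from AH9.6 and mir-249 lies 2636 bases from Y41G9A.6.

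Isolation from other counted hairpins was not shared by all 4. The nearest hairpin of the table lay 314991 bases from mir-231, 118766 from mir-77 and 66523 from mir-248. For mir-249 it was mir-785, 1678 bases away. Both arms are annotated as mature microRNAs for mir-77 (22 bases each), mir-231 (22 and 24 bases) and mir-249 (23 and 24 bases), and 1 arm of 24 bases for mir-248.

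The 4 hairpins differed widely in abundance. By mean CPM over the 12 libraries, scaled by library size alone, mir-77 was 25th of the 250 hairpins with 7521 CPM and mir-248 was 52nd with 798 CPM. The other 2 were close to each other, mir-249 at 75th with 245 CPM and mir-231 at 78th with 209 CPM. A read of a mature microRNA stands for a molecule of nearly the same length in each case, so these levels were not scaled by length. Their order of abundance was the same in 3 of the 4 groups. In rotenone at day 5 the lower pair changed places, with mir-231 at 249.6 CPM and mir-249 at 198 CPM after TMM scaling, a correction of library size for composition that is used for all CPM below.

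The largest of the 4 differences at day 5 was that of mir-77. In DMSO its libraries stood at 7723, 8185 and 7962 CPM, and in rotenone at 5632, 5630 and 5648 CPM. The rotenone libraries lay close together and all below the DMSO libraries. The group means were 7957 ± 231 and 5637 ± 9.68 CPM (SD, n = 3), a log2 difference of -0.50 ± 0.06 (SE), or 1.41-fold lower in rotenone. As a plain share of hairpin reads, mir-77 made up 0.733% to 0.784% of the DMSO libraries and 0.571% to 0.580% of the rotenone libraries.

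The only member that was higher in rotenone was mir-231. Its DMSO libraries at day 5 stood at 181, 201 and 209 CPM and its rotenone libraries at 246, 252 and 250.3 CPM. The groups did not overlap, and again the rotenone libraries were the tighter set (197 ± 14.2 against 249.6 ± 2.96 CPM, SD, n = 3). The difference was 0.34 ± 0.07 on the log2 scale, or 1.27-fold.

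Both X-linked hairpins were lower in rotenone at day 5. For mir-248 the DMSO libraries stood at 956, 983 and 1005 CPM and the rotenone libraries at 794, 766 and 747 CPM, a log2 difference of -0.35 ± 0.07 (SE). For mir-249 they stood at 228, 252 and 263 CPM in DMSO and at 199, 197 and 196 CPM in rotenone, a log2 difference of -0.33 ± 0.07 (SE). In neither did the groups overlap. The gap was narrower for mir-249, whose lowest DMSO library was the first replicate.

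All 4 members had groups that did not overlap at day 5, as did 39.8% of the 181 tested hairpins (27.6% with rotenone lower and 12.2% with rotenone higher). They were chosen for this difference, so nothing is read from that count. The rule of the choice names no size threshold, and whether size entered it is not stated. Ranks by size are therefore descriptions. By the size of the log2 difference they ranked 13th (mir-77), 24th (mir-248), 27th (mir-231) and 32nd (mir-249) of 181. The median log2 difference over all 181 was -0.04.

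**Figure D1:**
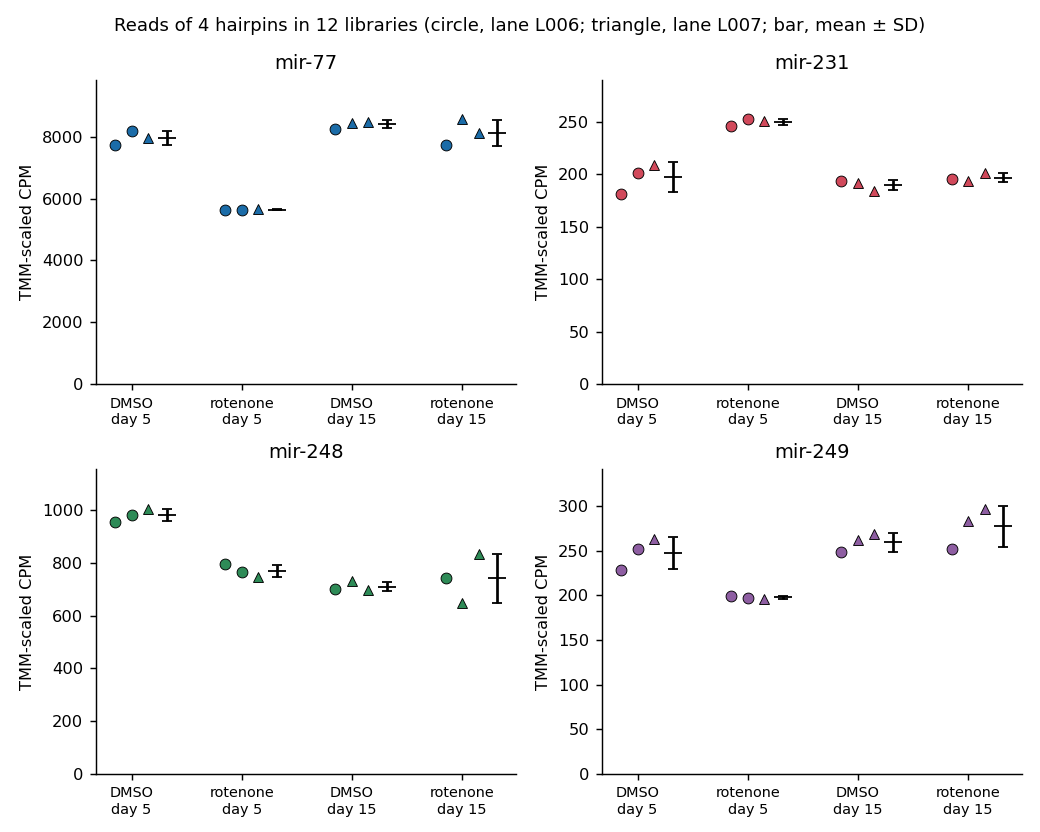
TMM-scaled CPM of mir-77, mir-231, mir-248 and mir-249 (vertical axes, linear and starting at 0) in the 3 libraries of each of 4 groups, with lane L006 as circles, lane L007 as triangles and bars for mean ± SD. At day 5 the rotenone libraries of mir-77 lie at 5630 to 5648 CPM below the DMSO libraries at 7723 to 8185 CPM, those of mir-231 lie above, and at day 15 the treatments lie close together.

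The size of these day 5 differences depended on how the libraries were scaled, because the choice shifts all hairpins together. Under 5 scalings mir-77 ranged from -0.50 (TMM) to -0.34 (upper quartile factors) and mir-231 from 0.34 to 0.50. Over the same scalings mir-248 ranged from -0.35 to -0.19 and mir-249 from -0.33 to -0.16, while the median of all tested hairpins moved from -0.04 to 0.12. Taken relative to that median, mir-77 lay at -0.46 to -0.45, mir-231 at 0.38 to 0.39, mir-248 at -0.31 and mir-249 at -0.29 to -0.28. With a filter that kept hairpins of at least 10 CPM the TMM values were nearer 0 for those that were lower, at -0.29, -0.14 and -0.12 for mir-77, mir-248 and mir-249, and further from it for mir-231, at 0.55.

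**Figure D2:**
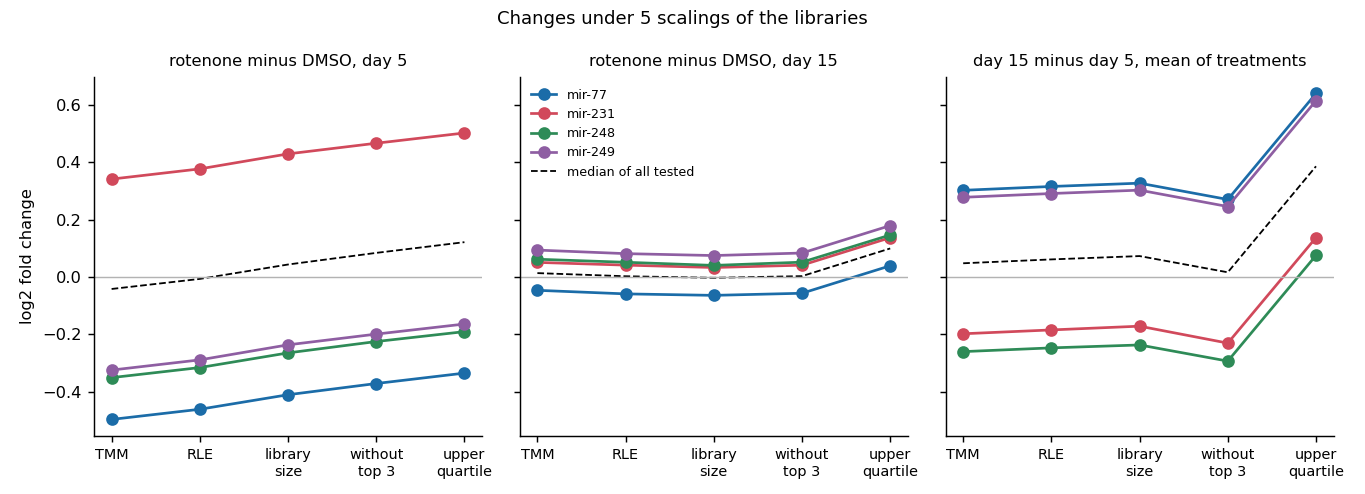
Log2 fold change (vertical axis) of the 4 hairpins under 5 scalings of the libraries (horizontal axis), for rotenone minus DMSO at day 5, the same at day 15, and day 15 minus day 5 averaged over treatments, with the median of all tested hairpins as a dashed line. The 4 hairpins move in parallel with the median, and for the ages the upper quartile factors lift the median to 0.39 and bring mir-231 and mir-248 above 0.

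Libraries were sequenced in 2 lanes, L006 and L007, as the labels name them. At day 5 lane L006 held 2 libraries of each treatment and lane L007 held 1 of each. Within L006 the rotenone minus DMSO differences were -0.45 for mir-77, 0.43 for mir-231, -0.26 for mir-248 and -0.22 for mir-249 on the log2 scale. Within L007 they were -0.46, 0.29, -0.39 and -0.39 in the same order. The signs were those of the pooled values in both lanes.

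Some tissue hairpins also differed between treatments at day 5. The summed level of the 8 oocyte and embryo hairpins was 8.47% to 9.80% of scaled reads in DMSO and 10.03% to 10.3% in rotenone, which did not overlap. Intestinal mir-60 ranged from 2102 to 2495 CPM in DMSO and from 1871 to 2157 CPM in rotenone, and muscle mir-1 from 475 to 616 and from 407 to 493 CPM, with overlap in both. Gonadal sheath mir-246 ranged from 13362 to 14393 CPM and from 12552 to 12646 CPM, without overlap. The 3 neuronal hairpins summed to 159 to 170.3 and to 154 to 192 CPM, and glial mir-228 overlapped between the groups as well. The part of tissue make-up in the differences of the 4 hairpins was not tested.

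The comparison at day 15 asked whether a difference was measurable in older worms, in libraries that had no part in choosing the members. For mir-77 the DMSO libraries stood at 8246, 8451 and 8484 CPM and the rotenone libraries at 7714, 8552 and 8115 CPM. The groups overlapped, with 2 of 3 rotenone libraries below the DMSO mean (8394 ± 129 against 8127 ± 419 CPM, SD, n = 3). The log2 change was -0.05 ± 0.06 (95% interval -0.17 to 0.08; adjusted p = 0.968, edgeR quasi-likelihood test).

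For mir-231 the DMSO libraries at day 15 stood at 193.2, 192.0 and 184.1 CPM and the rotenone libraries at 195.8, 193.2 and 201.1 CPM. The sets met at 193.2 CPM without overlapping, as did the groups of 11 of the 181 hairpins (6.08%), and as plain shares of reads they overlapped (0.0184% to 0.0201% against 0.0190% to 0.0203%). The log2 change was 0.05 ± 0.07 (95% interval -0.10 to 0.20; adjusted p = 0.968, edgeR quasi-likelihood test), with 3 of 3 rotenone libraries above the DMSO mean.

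For mir-248 at day 15 the DMSO libraries stood at 701, 730.4 and 698 CPM and the rotenone libraries at 741, 648 and 834 CPM. The rotenone libraries held both the lowest and the highest value, so the groups overlapped. The log2 change was 0.06 ± 0.07 (95% interval -0.09 to 0.21; adjusted p = 0.968, edgeR quasi-likelihood test), and 2 of 3 rotenone libraries lay above the DMSO mean. Without rotenone replicate 3 the value was -0.03.

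For mir-249 at day 15 the DMSO libraries stood at 248, 262 and 269 CPM and the rotenone libraries at 252, 283 and 297 CPM. The groups overlapped, with 2 of 3 rotenone libraries above every DMSO library. The log2 change was 0.09 ± 0.08 (95% interval -0.06 to 0.25; adjusted p = 0.968, edgeR quasi-likelihood test).

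No member passed at day 15, and neither did any other hairpin: edgeR's quasi-likelihood test made 0 calls at an adjusted p under 0.05 among 181 (0%), with 3 at an unadjusted p under 0.05 (1.66%). DESeq2 and limma-voom also made 0 calls, with 3 each at that unadjusted level. The intervals at day 15 reach down to -0.17, -0.09 and -0.06 for mir-77, mir-248 and mir-249, and up to 0.20 for mir-231. The day 5 differences were -0.50, -0.35, -0.33 and 0.34 in the same order. Those day 5 values are what chose the members, have errors of their own and may be enlarged by the choice. Whether the differences were lost by day 15 was not tested. The change of the difference between the ages is given without a test. It was 0.45 ± 0.09 (SE) on the log2 scale for mir-77, 0.41 ± 0.10 for mir-248, 0.42 ± 0.11 for mir-249 and -0.29 ± 0.10 for mir-231. With other scalings, filters, fits and lanes it ran from 0.25 to 0.47, 0.22 to 0.46, 0.22 to 0.50 and -0.49 to -0.25, respectively.

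Embryo hairpins summed to 15.5% to 16.4% of scaled reads in DMSO and 16.0% to 16.9% in rotenone at day 15. As context, 9 hairpins tied to lifespan or stress in worms (lin-4, mir-34, mir-71, mir-80, mir-228, mir-238, mir-239a, mir-239b and mir-246) were all tested. Of these 0 rose and 0 fell with rotenone at day 15, with log2 changes of -0.02 to 0.08 and a median of 0.03, against a median of 0.01 over all 181.

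**Figure D3:**
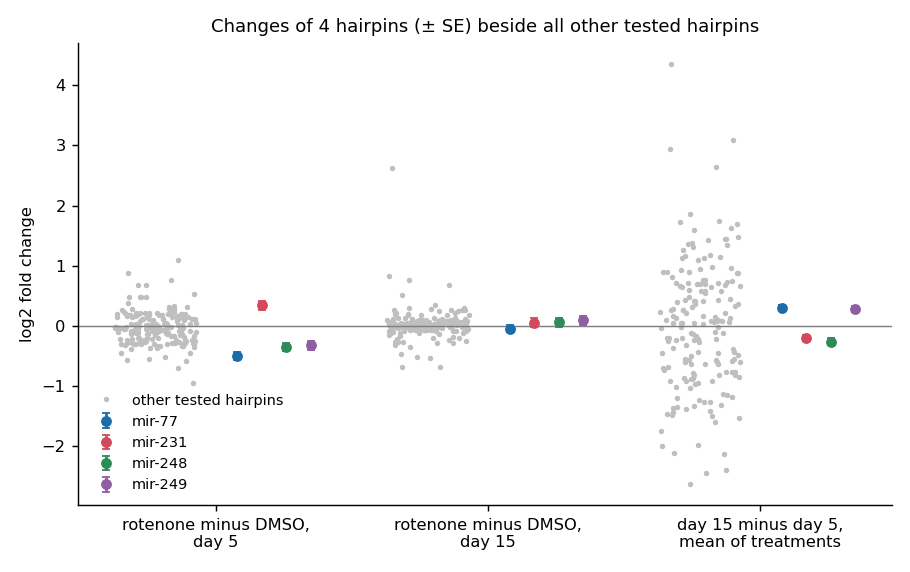
Log2 fold change (vertical axis) of the 4 hairpins, as points ± SE, beside all other tested hairpins in grey, for rotenone minus DMSO at day 5 and at day 15 and for day 15 minus day 5 averaged over treatments. The day 5 values chose the 4 hairpins; at day 15 they lie between -0.05 and 0.09, and for the ages they lie between -0.26 and 0.30, well inside the spread of the other hairpins.

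After TMM scaling the 4 hairpins took 3 courses across the groups, and these depended on the scaling. With upper quartile factors mir-77, mir-249 and mir-231 differed by 0.45, 0.44 and 0.32 between day 15 DMSO and day 5 DMSO. That difference was -0.09 for mir-248, while the median of all tested hairpins was 0.36. For mir-77 and mir-249, rotenone at day 5 was the lowest group and the other 3 lay near each other. The means of mir-77 were 7957 CPM in day 5 DMSO, 5637 in day 5 rotenone, 8394 in day 15 DMSO and 8127 in day 15 rotenone. Those of mir-249 were 248 ± 17.7, 198 ± 1.59, 259.7 ± 10.6 and 277 ± 22.8 CPM (SD, n = 3) in that order. The 3 higher groups overlapped in pairs for mir-249, and for mir-77 day 15 rotenone overlapped with both DMSO groups while the DMSO groups of the 2 ages did not overlap.

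For mir-231 rotenone at day 5 was the highest group, at 249.6 CPM. The other 3 had means of 197 ± 14.2, 189.8 ± 4.96 and 197 ± 4.02 CPM (SD, n = 3), in day 5 DMSO, day 15 DMSO and day 15 rotenone, which differ by less than the spread of day 5 DMSO. For mir-248 the group that stood apart was day 5 DMSO, at 981 ± 24.4 CPM. Its other groups had means of 769 ± 23.7 in day 5 rotenone, 709.9 ± 17.9 in day 15 DMSO and 741 ± 93.0 CPM in day 15 rotenone, where the last overlapped both of the others. The highest group mean exceeded the lowest by 1.49 times for mir-77, 1.40 for mir-249, 1.38 for mir-248 and 1.32 for mir-231.

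**Figure D4:**
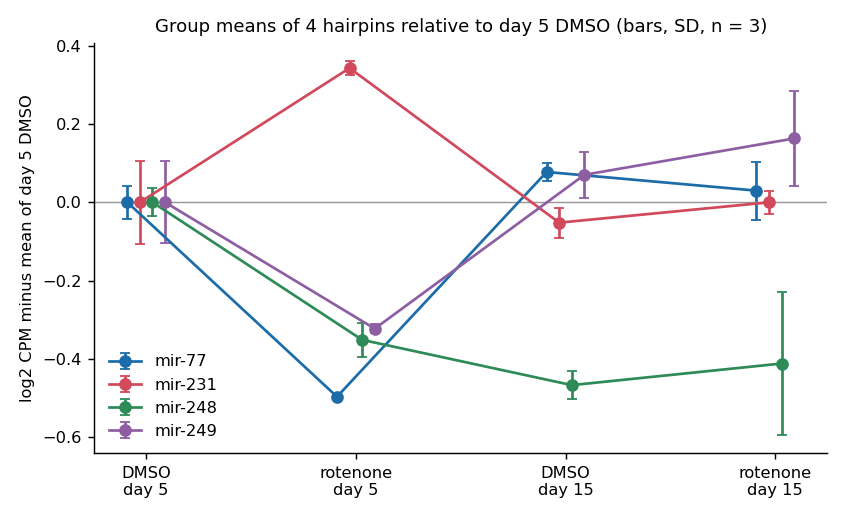
Mean TMM-scaled log2 CPM of each of the 4 hairpins relative to its own mean in day 5 DMSO (vertical axis) in the 4 groups. Bars show the SD (n = 3). In day 5 rotenone mir-77, mir-248 and mir-249 lie at -0.50, -0.35 and -0.32 and mir-231 at 0.34; in both day 15 groups mir-248 lies at -0.47 and -0.41 and the others lie between -0.05 and 0.16.

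Averaged over both treatments, mir-77 and mir-249 stood higher at day 15 than at day 5, and mir-231 and mir-248 stood lower. This average uses the day 5 libraries that chose the members, in which the spread was unequal: the log2 SD of mir-77 was 0.042 in DMSO and 0.0025 in rotenone, and that of mir-231 was 0.11 and 0.017. The ageing values of the members are therefore descriptions, with no test. The 6 day 5 libraries of mir-77 ran from 5630 through a median of 6686 to 8185 CPM and the 6 day 15 libraries from 7714 through 8348 to 8552 CPM. The ages overlapped, and 6 of 6 day 15 libraries lay above the day 5 mean. The log2 difference was 0.30 ± 0.04 (SE), or 1.23-fold.

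For mir-249 the day 5 libraries ran from 196 through 214 to 263 CPM and the day 15 libraries from 248 through 265 to 297 CPM. The ages overlapped here too, with 6 of 6 day 15 libraries above the day 5 mean and a log2 difference of 0.28 ± 0.05 (SE). For mir-248 the libraries ran from 747 through 875 to 1005 CPM at day 5 and from 648 through 716 to 834 CPM at day 15. All 6 day 15 libraries lay below the day 5 mean, with a log2 difference of -0.26 ± 0.05 (SE).

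For mir-231 the libraries ran from 181 through 228 to 252 CPM at day 5 and from 184 through 193 to 201 CPM at day 15. The day 15 libraries lay within the day 5 range, all 6 below its mean, and the log2 difference was -0.20 ± 0.05 (SE). It was -0.11 within lane L006 and -0.28 within lane L007, where each treatment had a single library at day 15 and at day 5, respectively. With upper quartile factors, which moved the median of all hairpins from 0.05 to 0.39, both turned positive, mir-231 to 0.14 and mir-248 to 0.08. Over the 5 scalings and relative to that median, mir-77 lay at 0.25, mir-249 at 0.23, mir-231 at -0.25 to -0.24 and mir-248 at -0.31.

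With age, edgeR called 85.1% of the 181 hairpins at an adjusted p under 0.05, 42% higher and 43.1% lower (with upper quartile factors 101 of 156 calls were higher). The differences of the members were small beside the others: the median size over all 181 was 0.70 on the log2 scale, and the members ranked between 137th and 156th by size. The libraries of the ages did not overlap for 116 hairpins (64.1%) and overlapped for each of the 4. The day 5 difference that chose the members widens their range at that age, so nothing is read from this overlap. Of the 9 lifespan and stress hairpins, 4 rose and 3 fell, and their changes ran from -1.36 to 1.74 with a median of 0.05.

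The averages joined unequal parts. From day 5 to day 15 mir-77 changed by 0.08 ± 0.06 (SE) in DMSO and by 0.53 ± 0.06 in rotenone on the log2 scale, and mir-249 by 0.07 ± 0.08 and 0.49 ± 0.08. For mir-231 the values were -0.05 ± 0.07 and -0.34 ± 0.07. The order was the other way for mir-248, with -0.47 ± 0.07 in DMSO and -0.05 ± 0.07 in rotenone. These values share the day 5 libraries that chose the members and are given without a test. They moved with the scaling, the filter and the lane. In DMSO they ran from 0.06 to 0.45 for mir-77 and from 0.003 to 0.44 for mir-249. For mir-231 they ran from -0.16 to 0.32 and for mir-248 from -0.50 to -0.09. In rotenone they ran from 0.43 to 0.83, 0.39 to 0.79, -0.44 to -0.05 and -0.16 to 0.24 in the same order. Each highest value came with upper quartile factors, which moved the median of all hairpins in DMSO from -0.02 to 0.36. Between the ages the summed embryo hairpins also differed, from 8.47% to 10.3% at day 5 and from 15.5% to 16.9% at day 15, and so did mir-246, mir-60, mir-1 and the neuronal sum, whose ranges at the 2 ages did not overlap. Their part in the members' values was not tested.

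Ratios between 2 of the hairpins within a library do not depend on the scaling. In day 5 DMSO there were 38.1 to 42.6 reads of mir-77 for each read of mir-231, and in day 5 rotenone 22.3 to 22.9. At day 15 the ratio was 42.7 to 46.1 in DMSO and 39.4 to 44.3 in rotenone. The day 5 rotenone libraries stood apart from all 9 others, whose range was 38.1 to 46.1. The mean log2 ratio differed between treatments by -0.84 at day 5 and by -0.10 at day 15.

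The ratio of mir-231 to mir-249 crossed 1. It was 0.794 to 0.799 in day 5 DMSO and 1.24 to 1.28 in day 5 rotenone, against 0.684 to 0.778 in day 15 DMSO and 0.677 to 0.776 in day 15 rotenone. The 3 values of day 5 DMSO lay within an SD of 0.01 on the log2 scale.

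The X-linked pair kept its ratio across treatments and differed between ages. There were 3.82 to 4.19 reads of mir-248 for each read of mir-249 in day 5 DMSO and 3.81 to 3.99 in day 5 rotenone, so these ranges overlapped. At day 15 the ratio was 2.59 to 2.82 in DMSO and 2.29 to 2.94 in rotenone, below every day 5 library. The mean log2 ratio changed with age by -0.54 in DMSO and by -0.55 in rotenone, and differed between treatments by -0.03 at day 5 and -0.04 at day 15.

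The ratio of mir-77 to mir-248 showed the same separation by age. It was 7.92 to 8.33 in day 5 DMSO and 7.09 to 7.56 in day 5 rotenone, and lay above both at day 15, at 11.6 to 12.2 in DMSO and 9.72 to 13.2 in rotenone. The mean log2 change with age was 0.54 in DMSO and 0.59 in rotenone. In contrast the ratio of mir-77 to mir-249 ranged from 30.3 to 33.8 and from 28.3 to 28.8 at day 5 and from 31.5 to 33.2 and from 27.3 to 30.6 at day 15, in DMSO and rotenone, a log2 change with age of 0.01 and 0.04. At both ages the rotenone mean of this ratio was the lower, by 0.17 at day 5 and by 0.14 at day 15 on the log2 scale. No test was run on the ratios, since the members were chosen by their day 5 values.

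**Figure D5:**
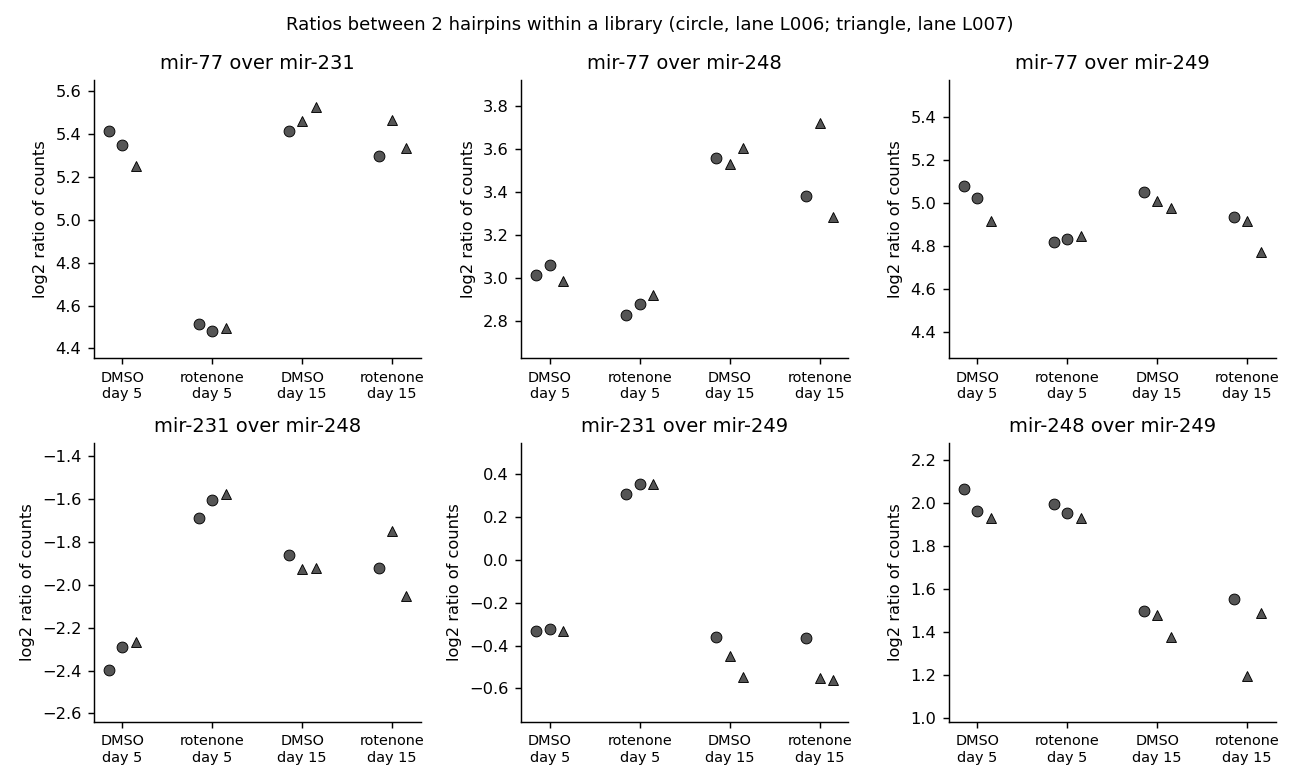
Log2 ratio of the counts of 2 hairpins in each library (vertical axes, all spanning the same range of log2 units) in the 4 groups, for the 6 pairs of members, with lane L006 as circles and lane L007 as triangles. The ratios of mir-231 to each other hairpin set day 5 rotenone apart, while those of mir-248 to mir-77 and to mir-249 separate the ages.

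The spread of the replicates is given as a description. The fitted biological coefficient of variation was 5.71% for mir-77, the 3rd lowest of 181. It was 5.92% for mir-231 (20th), 6.58% for mir-248 (49th) and 6.398% for mir-249 (41st), against a median of 7.29%. The fit includes the day 5 libraries that chose the members. Such a choice can favour tight replicates, so nothing is read from these values. The widest group was mir-248 in day 15 rotenone, with a coefficient of variation of 12.5%, and the tightest was mir-77 in day 5 rotenone with 0.172%. After the group means were taken off, mir-77 and mir-249 had a Pearson correlation of 0.69 over the 12 libraries. The other 5 pairs lay between -0.36 and 0.53. These libraries share their scaling factors, and the correlations are descriptions.

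The closest genomic neighbour of a member among the counted hairpins, mir-785, was compared with mir-249 as a matter of position. It stood at 337 ± 21.9 CPM in day 5 DMSO, 305 ± 6.998 in day 5 rotenone, 403 ± 20.5 in day 15 DMSO and 405 ± 24.9 in day 15 rotenone (SD, n = 3). At day 5 its log2 difference between rotenone and DMSO was -0.15 ± 0.07 (adjusted p = 0.122, edgeR quasi-likelihood test), beside -0.33 ± 0.07 for mir-249. Its day 5 libraries did not overlap (316 to 359 CPM in DMSO, 297 to 311 in rotenone), as for 39.8% of tested hairpins. At day 15 the log2 change of mir-785 with rotenone was 0.00 ± 0.07 (adjusted p = 0.982, edgeR quasi-likelihood test). With age it rose by 0.33 ± 0.05 (adjusted p = 7.7e-07, edgeR quasi-likelihood test), beside 0.28 ± 0.05 for mir-249.

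The hairpins whose pattern was most like that of each member were found by Pearson correlation of log2 CPM over the 12 libraries among 127 candidates that averaged 10 CPM or more. For mir-77 they were mir-66, mir-48 and mir-75 (0.91, 0.90 and 0.90) and for mir-249 mir-75, mir-359 and mir-785 (0.92, 0.90 and 0.87). For mir-248 they were mir-357, mir-241 and mir-63 (0.88, 0.87 and 0.86). For mir-231 no hairpin was as close, with mir-251, mir-254 and mir-67 at 0.71, 0.70 and 0.68. Among the members themselves mir-77 had a correlation of 0.92 with mir-249 and of -0.94 with mir-231. That of mir-231 with mir-249 was -0.78, and those of mir-248 lay between -0.05 and 0.01. These values, like those above, include the day 5 difference that chose the members, so nothing is read from their size or sign. With the group means taken off, mir-77 and mir-231 stood at 0.18.

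When the mean of each age was taken off, so that the day 5 treatment difference that chose the members weighed most, the closest to mir-77 was mir-71, which promotes long life in worms, with 0.99. It was followed by mir-75 (0.95) and mir-239a (0.93). At day 5 the rotenone mean of mir-71 was below its DMSO mean (6725 against 10874 CPM). Its day 15 means were lower still, 3355 CPM for DMSO and 3316 CPM for rotenone, whereas both day 15 means of mir-77 exceeded its day 5 means. Among all tested hairpins, 27.6% were lower in rotenone at day 5 without overlap. The correlations here and below rest mostly on the difference that chose the members, so nothing is read from them. For mir-249 the closest were mir-75, mir-70 and mir-239a (0.93 each), and for mir-248 they were mir-63, mir-34 and mir-240 (0.93, 0.93 and 0.91). For mir-231 they were mir-1018, mir-42 and mir-250 (0.89, 0.87 and 0.84), of which mir-42 belongs to the oocyte and embryo hairpins.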

How the data were processed

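The authors deposited raw counts of reads per microRNA hairpin for 12 libraries, with no normalization; libraries were made with a TruSeq small RNA kit, per the labels' protocols. Per the submitters' processing notes, the tools were BWA 0.7.12-r1039, Trimmomatic 0.36, SAMtools 1.3.1-9 and bcl2fastq 1.8.4. Not given in the sources used here are the build, the hairpin reference, and how reads of several hairpins were treated, so reads shared with a similar hairpin could move a count. Counts were fitted with edgeR 4.0.16 (R 4.3.3) after filterByExpr (minimum count 10): TMM scaling, 4 group means, 8 residual degrees of freedom, quasi-likelihood F test and Benjamini-Hochberg adjustment over 181 hairpins, with calls at 0.05. Members carry a p-value only for rotenone at day 15. The planned test of their ageing was dropped, since it shares the day 5 libraries that chose them. The script was tested on simulated counts. An SE is the log2 change divided by the square root of F. Correlations used log2 CPM with a prior count of 2. Alternatives were 4 other scalings, 2 filters, DESeq2 1.42.0, limma-voom (limma 3.58.1), lane, the groups fitted and each library left out.

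Replicates were numbered in order of deposit. The members and lists were chosen with earlier results of these data known. Named hairpins are the members, the 3 closest in pattern to each by either measure, the 9 context hairpins by count, and mir-785, added for its position. Of 250 names, 247 matched the Ensembl WBcel235 annotation. Mature sequences and shared seeds were not analysed here.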

Additional observations from a re-analysis of the deposited data

How the results depend on the processing

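Other than leaving out a library, 12 settings were run. Rotenone at day 15 gave 0 calls in each except within lane L006, where a lone library stood for each treatment at day 15 and was assumed to vary like the other groups, and where 3 hairpins were called, none of them a member. That count was 0 to 0 with each of 12 libraries left out. The day 15 value of mir-77 changed sign with upper quartile factors (0.039), within lane L006 (0.018) and without rotenone replicate 1 of that age (-0.062 to 0.016 over the libraries left out), and that of mir-248 without rotenone replicate 3 (-0.028 to 0.17 over the libraries left out). None of these passed. The count of hairpins called with age was 117 to 156 under the settings, the lowest with at least 10 CPM, and 151 to 158 over the libraries left out. Among values without a test, ageing averaged over treatments stayed above 0 for mir-77 (0.27 to 0.64 under the settings) and mir-249 (0.24 to 0.62). For mir-231 and mir-248 it turned to 0.14 and 0.075 with upper quartile factors and stayed below 0 under the other settings, nearest to it for mir-231 within lane L006 (-0.11). Over the libraries left out they were -0.23 to -0.18 and -0.32 to -0.22. Ageing of mir-231 in DMSO alone changed sign with library size alone (0.027), upper quartile factors (0.32), at least 10 CPM (0.084) and within lane L006 (0.044). Ageing of mir-248 in rotenone did so with upper quartile factors (0.24) and within lane L006 (0.017), and ran from -0.18 to 0.016 over the libraries left out, the last without rotenone replicate 2 of day 15. The cause was not tested. The day 5 differences kept their signs under every setting. With at least 10 CPM those of mir-248 and mir-249 shrank to -0.14 ± 0.07 and -0.12 ± 0.07 (SE). These differences chose the members, so nothing is read from the stable signs. No paired analysis was possible because the labels give no replicate numbers that groups share.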
